A study of Mus musculus with 6 samples.

Results

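The genes described here are 10 genes of the nuclear factor kappaB (NF-κB) system, chosen by symbol among the 55364 genes in the count tables of mouse lung fibroblasts (LFs) exposed to TGFβ. They comprise 4 genes of NF-κB subunits (Rela, Relb, Nfkb1 and Nfkb2), 3 genes of inhibitors (Nfkbia, Nfkbiz and Tnfaip3), and 3 genes that NF-κB can induce (Icam1, Vcam1 and Il1rl1). All 10 symbols matched 1 gene each. Another 108 genes of the pathway, grouped by role, were set beside them.

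RNA was collected from primary LFs of wt mice and of mice that carry a disrupted copy of Tks5 (Sh3pxd2a), which encodes a scaffold protein of podosomes, with 3 libraries of each genotype. The mutant libraries are labelled as a knockout, whereas the study describes heterozygous Tks5+/- mice in which homozygous loss was not viable, and Tks5+/- is used below. LFs were isolated from whole lungs of C57Bl6/J mice of 8 to 10 weeks by digestion, used at passage 2 to 3, and all 6 cultures received 10 ng/ml TGF-β1 in serum-free medium for 24 h, so no library without TGFβ enters the comparison. The sources describe 2 Tks5 alleles, of which either gives Tks5+/- mice, and do not tie one to these libraries. The study describes its samples as biologically independent, while the sources do not say which animals or how many gave each library, and the p-values measure the spread between these libraries.

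NF-κB is a family of dimeric transcription factors that are held in the cytoplasm by inhibitory IκB proteins until a receptor, through adaptors, ubiquitin chains and the IKK kinases, causes the inhibitor to be degraded. The canonical arm releases dimers of RelA and p50, whereas the noncanonical arm runs through NIK, the product of Map3k14, and processes the product of Nfkb2 for dimers with RelB. Several inhibitors and subunits are themselves NF-κB targets, and in lung fibroblasts the system is known for the induction of adhesion molecules, chemokines and acute phase proteins.

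The binding sites of these dimers share a consensus of 10 bases, the kappaB consensus, which was searched on both strands of promoter windows from 250 bases before to 50 bases after each RefSeq start site (GRCm38.p6). The RefSeq table held windows for 6 of the 10 genes, with 10 start sites in all. Relb, Nfkb1, Nfkbiz and Vcam1 had no entry. A match was present for 3 of the 6 genes, namely Nfkbia, Nfkb2 and Tnfaip3, whereas 5.14% of the 27025 genes in the whole table held a match at any start site. Stretches of 30 bases are given for the genes whose windows hold a match, 5′ to 3′ on the strand of the gene, with the match in capitals. The Nfkbia match reads in the consensus direction on the opposite strand, and its first base stands at -29 from the start site (chr12:55492657-55492686, reverse strand). The first Nfkb2 match, which reads as the consensus on both strands, stands at -39 from the first start site (chr19:46304688-46304717, forward strand). The second Nfkb2 match shown begins at position 11, counted with the second start site as position 1 (chr19:46305695-46305724, forward strand). The Tnfaip3 match shown reads on the opposite strand at -12 from the first start site (chr10:19015403-19015432, reverse strand).
Nfkbia: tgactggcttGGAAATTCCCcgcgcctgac
Nfkb2 first start: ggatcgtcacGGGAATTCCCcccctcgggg
Nfkb2 second start: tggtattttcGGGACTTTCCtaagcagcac
Tnfaip3 first start: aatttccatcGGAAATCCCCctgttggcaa
Nfkb2 held matches at 4 separate places over its start sites, Tnfaip3 at 2 and Nfkbia at 1. The windows of Icam1, Rela and Il1rl1 did not hold these letters, which says nothing of sites elsewhere. A match of letters is a description of the sequence and was not tested for binding.

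The libraries held 1344507 to 2369882 counts in wt and 1979084 to 2329155 counts in Tks5+/- LFs. Of 10346 genes tested across the whole table with edgeR's quasi-likelihood test, 4642 passed both thresholds (Benjamini-Hochberg adjusted p below 0.05, fold change no less than 1.2) and are referred to as called, with 2356 higher and 2286 lower in Tks5+/- LFs. Sh3pxd2a itself had 205, 190 and 284 counts in wt and 238, 258 and 260 counts in Tks5+/- libraries, a log2 fold change of 0.29 (SE 0.20, adjusted p = 0.249 by edgeR). Reads were taken from the transcript end and not from the exon that the study removed, so loss of that exon is not read directly. Why the Sh3pxd2a counts were not lower in Tks5+/- libraries was not tested. Levels are given as CPM, counts relative to the scaled library size. All 12 fibroblast markers were detected in the libraries. Their sums overlapped, at 6307, 6940 and 5493 CPM in wt and 9600, 6885 and 6243 CPM in Tks5+/- libraries. Single fibroblast markers moved both ways, with 4 called higher and 2 called lower in Tks5+/- LFs (22.8% and 22.1% of all tested genes). Markers of macrophages summed to 497, 422 and 2679 CPM in wt and to 151, 169 and 167 CPM in Tks5+/- libraries, so that wt replicate 3 stood apart. All 20 macrophage markers were detected, 15 of them were lower in every Tks5+/- than in every wt library, and 4, including Ptprc, Adgre1 and Marco, were at 0 in all Tks5+/- libraries. Over all tested genes 27.6% were lower in every Tks5+/- library, and some markers were near the floor in wt too (Aif1 at 2, 1 and 3 counts). Endothelial markers summed to 127 to 170 CPM in wt and 45.6 to 61.9 CPM in Tks5+/- libraries, with 9 of 12 lower in every Tks5+/- library and 3, including Pecam1, at 0 there. Markers of mesothelial cells (20.9 to 25.7 against 3.58 to 13.2 CPM) and lymphocytes (2.57 to 4.08 against 0.512 to 1.10 CPM, with 7 of 10 at 0 in all libraries) were also lower in sum, and none of the 10 lymphocyte markers was kept for the test. Sums for epithelial cells (32.1 to 66.4 against 29.7 to 62.0 CPM) overlapped between genotypes, but 5 of 9 markers were lower in every Tks5+/- library and 6 were at 0 in all of them (3 of these at 0 in all libraries), while Ager was higher (20, 18 and 35 against 68, 103 and 57 counts). Sums for mast cells and basophils (34.5 to 51.5 against 45.6 to 55.8 CPM) overlapped too, with 4 of 10 at 0 throughout, 1 called higher (Mcpt8) and 1 called lower (Il3ra). The part of other cells in the results below was not tested, and in bulk RNA fewer cells of a type and less RNA per cell cannot be told apart.

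Of the 10 NF-κB genes, 4 were lower in Tks5+/- LFs and none was called higher. Icam1, the adhesion molecule for leukocyte integrins, fell most, by 1.84 on the log2 scale, followed by the noncanonical subunit gene Nfkb2 (-1.56), the gene of the inhibitor IκBα, Nfkbia (-0.74), and the canonical subunit gene Rela (-0.65). Tnfaip3 was removed by the filter on low counts, so that 9 genes were tested, of which 4 (44.4%) were called, beside 44.9% of all tested genes called in either direction. The share called is therefore close to that of all genes, while all 4 calls were in the lower direction, in which 22.1% of all tested genes were called. CPM of every Tks5+/- library lay below every wt library for 6 of the 9 genes (27.6% of all tested genes), and above for 1, Il1rl1 (26.1% of all tested genes). Il1rl1 passed the filter on low counts through its Tks5+/- libraries. The median log2 fold change of the 9 genes was -0.65, beside -0.046 over all tested genes. The list was chosen with results of these data known, so its counts are a description.

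**Figure D1:**
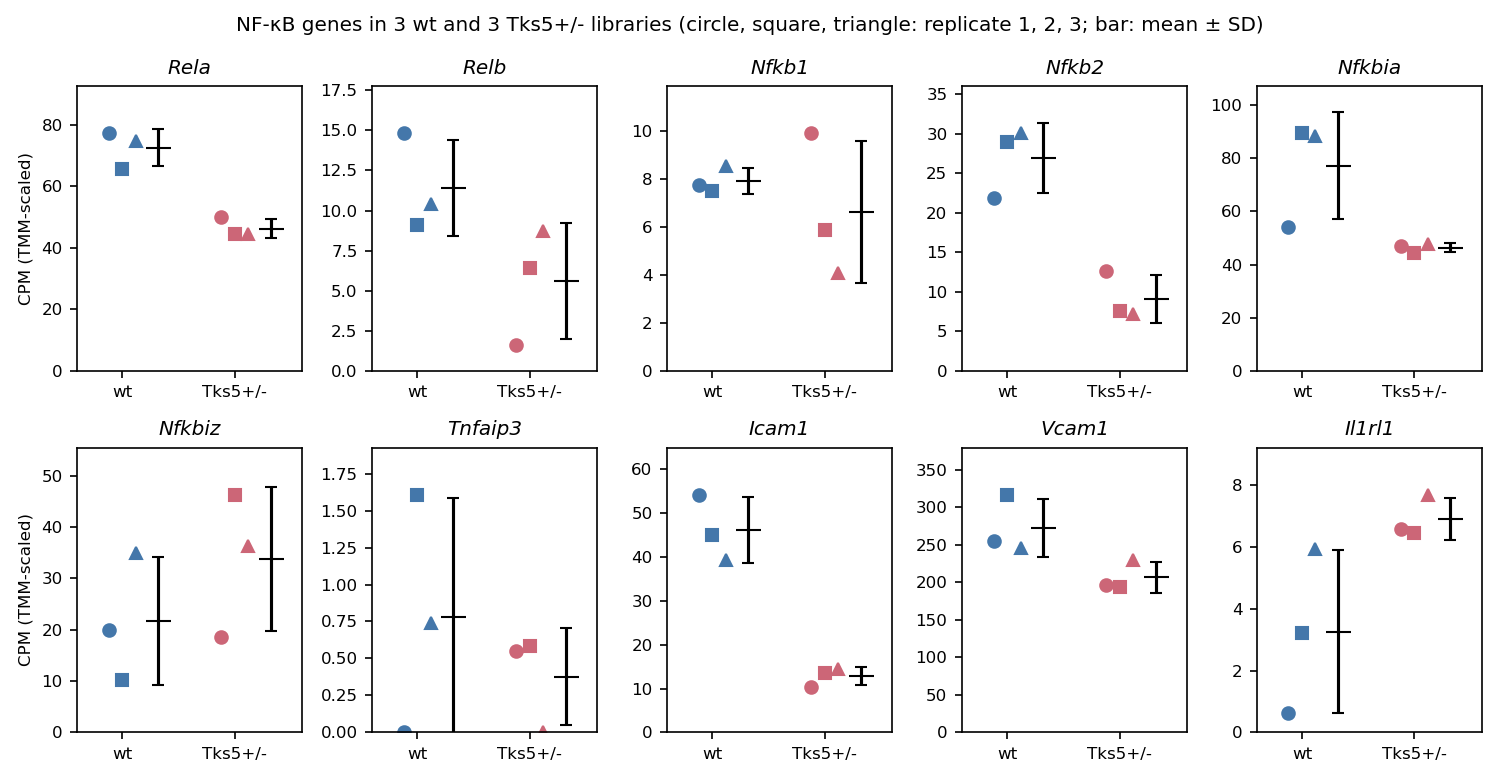
CPM, scaled by TMM, of the 10 NF-κB genes (vertical axis, from 0 and separate for each gene) in 3 wt (blue) and 3 Tks5+/- (red) libraries, with circle, square and triangle for replicates 1, 2 and 3 and the bar for mean ± SD. The groups are separate for Rela, Relb, Nfkb2, Nfkbia, Icam1, Vcam1 and Il1rl1, and overlap for Nfkb1, Nfkbiz and Tnfaip3.

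Among the subunits, Rela encodes the transactivating subunit p65 of the canonical dimer and lies on chr19:5637483-5648130 (ENSMUSG00000024927). Its counts were 120, 123 and 202 in wt and 91, 76 and 87 in Tks5+/- libraries. Scaled to CPM these were 77.2, 65.8 and 74.9 in wt and 49.9, 44.5 and 44.5 in Tks5+/- LFs, and the groups did not overlap. Mean CPM was 72.6 ± 6.03 (SD, n = 3) against 46.3 ± 3.14, a 1.57-fold lower level (log2 fold change -0.65, SE 0.21, 95% interval -1.09 to -0.21, edgeR adjusted p = 0.0156). The call was lost when each library was corrected for its trend with transcript GC content (log2 fold change -0.33, adjusted p = 0.211 by edgeR) or when Tks5+/- replicate 2 (adjusted p = 0.0534) or 3 (adjusted p = 0.0586) was left out. Over all 22 alternatives the adjusted p of Rela ran from 4.57e-04 to 0.26 by the tools named for them, with the direction lower in each.

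Nfkb2 encodes p100, an IκB-like precursor that is processed to the p52 subunit, and lies on the forward strand of chr19:46304320-46312385 (ENSMUSG00000025225). Its counts were 34, 54 and 81 in wt and 23, 13 and 14 in Tks5+/- libraries. In CPM, the wt libraries stood at 21.9, 28.9 and 30 and the Tks5+/- libraries at 12.6, 7.61 and 7.16, without overlap. Nfkb2 was 2.96-fold lower in Tks5+/- LFs (26.9 ± 4.41 against 9.13 ± 3.03 CPM, SD, n = 3, log2 fold change -1.56, SE 0.32, edgeR adjusted p = 3.77e-04). It was called under all 22 alternatives, with log2 fold changes from -1.97 to -1.10. The gene on the opposite strand that overlaps the end of Nfkb2, Psd, had nearly the same counts, 31, 52 and 79 in wt and 23, 12 and 11 in Tks5+/- libraries (log2 fold change -1.62, edgeR adjusted p = 5.02e-04). Whether the counting kept to a strand is not given in the sources used here, so reads of Nfkb2 and Psd cannot be told apart, and these values are those of the pair.

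Relb encodes RelB, the partner of p52 in the noncanonical dimer (ENSMUSG00000002983, chr7:19606217-19629438). It was counted 23, 17 and 28 times in wt and 3, 11 and 17 times in Tks5+/- libraries. The highest Tks5+/- library, at 8.70 CPM, lay just under the lowest wt library, at 9.10 CPM. The log2 fold change of -1.0 (SE 0.46, 95% interval -1.94 to -0.055) did not pass the test (edgeR adjusted p = 0.0786, range over the alternatives 0.012 to 0.338). Relb was called without Tks5+/- replicate 3 (log2 fold change -1.45, edgeR adjusted p = 0.038), the Tks5+/- library with the most Relb. It was also called with library totals alone as scaling (-1.43, edgeR adjusted p = 0.012), under which the median of all tested genes shifted to -0.47.

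Nfkb1 encodes p105, the precursor of p50 (ENSMUSG00000028163, chr3:135584655-135691547), and was counted 12, 14 and 23 times in wt and 18, 10 and 8 times in Tks5+/- libraries. Mean CPM was 7.91 ± 0.544 in wt and 6.61 ± 2.96 in Tks5+/- LFs (SD, n = 3), and the groups overlapped. The log2 fold change was -0.27 (SE 0.42, 95% interval -1.15 to 0.60, edgeR adjusted p = 0.629), and it stood at 0.022 without Tks5+/- replicate 3 (edgeR adjusted p = 0.974). At these counts a change of the size of Rela's lies inside the interval and was not detectable.

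Ratios of counts within a library do not depend on the scaling between libraries. The ratio of Nfkb2 to Nfkb1 counts was 2.83, 3.86 and 3.52 in wt and 1.28, 1.3 and 1.75 in Tks5+/- libraries, without overlap, and it carries the reads shared with Psd. The ratio of Relb to Rela was 0.192, 0.138 and 0.139 in wt and 0.033, 0.145 and 0.195 in Tks5+/- libraries. These overlapped, with the lowest value in Tks5+/- replicate 1.

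**Figure D2:**
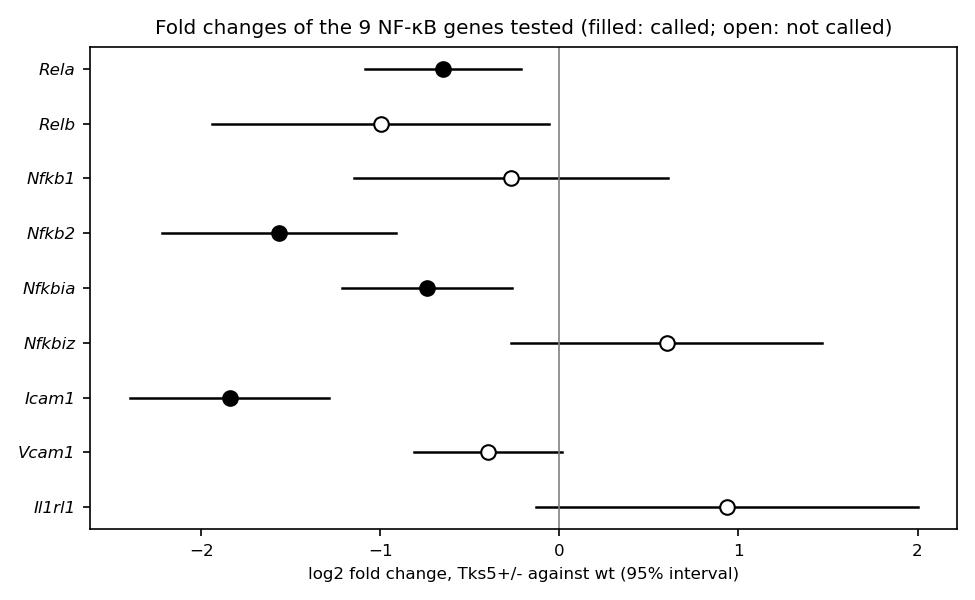
Log2 fold change of Tks5+/- against wt LFs (horizontal axis) for the 9 NF-κB genes tested, with the 95% interval as a line, filled points for called genes and open points for the others. The 4 filled points, Rela, Nfkb2, Nfkbia and Icam1, lie between -1.84 and -0.65, and the open points of Nfkbiz and Il1rl1 lie above 0 with intervals that include 0.

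Of the inhibitors, 1 was called lower, 1 did not pass the test and 1 was too low to test. Nfkbia encodes IκBα, which retains canonical dimers in the cytoplasm and is resynthesized upon activation (ENSMUSG00000021025, chr12:55489410-55492647). The gene, whose promoter match is printed above, had 84, 167 and 238 counts in wt and 86, 76 and 93 counts in Tks5+/- libraries. In CPM the Tks5+/- libraries were close together (47.2, 44.5 and 47.6), whereas the wt libraries were spread, with replicate 1 at 54.1 and replicates 2 and 3 at 89.4 and 88.2. Nfkbia was 1.67-fold lower in Tks5+/- LFs (log2 fold change -0.74, SE 0.23, 95% interval -1.22 to -0.27, edgeR adjusted p = 0.0114). The call rested on both high wt libraries, being lost without wt replicate 2 (-0.63, edgeR adjusted p = 0.0702) or wt replicate 3 (-0.64, edgeR adjusted p = 0.0542). Over the alternatives its adjusted p ran from 2.03e-04 to 0.0702 in edgeR and the other tools. Nfkbia counts per Rela count were 0.70, 1.36 and 1.18 in wt and 0.945, 1.00 and 1.07 in Tks5+/- libraries, which overlapped.

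Nfkbiz encodes IκBζ, a nuclear and inducible IκB protein that acts on secondary NF-κB targets (ENSMUSG00000035356, chr16:55811375-55838899). Its counts varied within both genotypes, at 31, 19 and 94 in wt and 34, 79 and 71 in Tks5+/- libraries. The highest wt library was replicate 3, which also held the most macrophage markers. Mean CPM was 21.7 ± 12.4 against 33.7 ± 14 (SD, n = 3), and the log2 fold change of 0.60 (SE 0.40, 95% interval -0.27 to 1.47) did not pass the test (edgeR adjusted p = 0.247). Without wt replicate 3, Nfkbiz was called higher in Tks5+/- LFs (log2 fold change 1.17, edgeR adjusted p = 0.0138). Its adjusted p over the alternatives ran up to 0.742 by the tools named for them.

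Tnfaip3 encodes A20, a ubiquitin-editing enzyme that ends NF-κB signaling (ENSMUSG00000019850, chr10:19000910-19015657). It had 0, 3 and 2 counts in wt and 1, 1 and 0 counts in Tks5+/- libraries. Every library was at or under 3 counts, which corresponds to 1.11 to 1.93 CPM, so that no fold is given and a difference was not detectable at this depth.

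Among the inducible genes, Icam1, which encodes the ligand of the leukocyte integrin LFA-1, differed most (ENSMUSG00000037405, chr9:21015985-21028817). Its counts were 84, 84 and 106 in wt and 19, 23 and 28 in Tks5+/- libraries. In CPM the wt libraries stood at 54.1, 44.9 and 39.3, and all Tks5+/- libraries lay far below them, at 10.4, 13.5 and 14.3. Icam1 was 3.58-fold lower in Tks5+/- LFs (46.1 ± 7.45 against 12.7 ± 2.05 CPM, SD, n = 3, log2 fold change -1.84, SE 0.27, 95% interval -2.4 to -1.28, edgeR adjusted p = 1.01e-05). The call was made under all 22 alternatives, with log2 fold changes from -2.27 to -1.64 and adjusted p from 9.26e-09 to 2.28e-04 by the tools named for them. Icam1 is also expressed by macrophages and endothelial cells, whose markers were lower in the same libraries (151 to 169 against 422 to 2679 CPM and 45.6 to 61.9 against 127 to 170 CPM in sum), and their part in the Icam1 result was not tested. Without wt replicate 3 the log2 fold change was -1.95.

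Vcam1, the ligand of the integrin VLA-4 (ENSMUSG00000027962, chr3:116109949-116129688), had the most counts of the 10 genes, 397, 591 and 662 in wt and 358, 330 and 450 in Tks5+/- libraries. In CPM the groups were close and did not overlap, at 256, 316 and 245 in wt against 196, 193 and 230 in Tks5+/- LFs. The log2 fold change of -0.40 (SE 0.20, 95% interval -0.81 to 0.017) did not pass the test (edgeR adjusted p = 0.111, range over the alternatives 0.00198 to 0.402). Vcam1 was called lower with library totals alone (-0.82, edgeR adjusted p = 0.00198) and with the authors' normalized counts in limma (-0.76, adjusted p = 0.00694). The ratio of Icam1 to Vcam1 counts within a library was 0.212, 0.142 and 0.16 in wt and 0.0531, 0.0697 and 0.0622 in Tks5+/- libraries. All Tks5+/- ratios lay below all wt ratios, so the share of Icam1 beside Vcam1 was lower whatever the scaling.

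Il1rl1 encodes ST2, the receptor of IL-33, in a membrane form and a soluble decoy form that the gene totals do not separate (ENSMUSG00000026069, chr1:40429570-40465415). It had the direction opposite to Icam1, with 1, 6 and 16 counts in wt and 12, 11 and 15 counts in Tks5+/- libraries. Il1rl1 passed the filter on low counts through the Tks5+/- libraries, in which it is higher, so its direction is a description. The wt libraries ranged from 0.644 to 5.93 CPM and the Tks5+/- libraries from 6.44 to 7.68 CPM, without overlap. The log2 fold change of 0.93 (SE 0.52, 95% interval -0.13 to 2.00) did not pass the test (edgeR adjusted p = 0.144, range over the alternatives 0.0402 to 0.424). Only without wt replicate 3, the wt library with the most Il1rl1, was it called higher (log2 fold change 1.74, edgeR adjusted p = 0.0402). Mast cells, which also express ST2, showed no count of Cpa3, Cma1, Tpsb2 or Fcer1a in any library. Of the 6 detected markers of mast cells and basophils, Mcpt8, a protease of basophils, had 3, 2 and 2 counts in wt and 44, 44 and 76 in Tks5+/- libraries. Il3ra, a receptor subunit for IL-3, went the other way, with 64, 50 and 59 against 16, 14 and 13 counts. Kit, Gata2, Hdc and Ms4a2 had 0 to 21 counts in each library. The part of such cells in Il1rl1 was not tested.

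As single values, the 7 genes whose groups did not overlap (beside 53.8% of all tested genes) each reached p = 0.1 in an exact two-sided permutation test of the CPM, the smallest p that 3 against 3 libraries allow. The exact two-sided permutation p was 0.3 for Nfkbiz, 0.5 for Nfkb1 and 0.5 for Tnfaip3. With wt replicate 3 left out, 5 of the 9 NF-κB genes were called, 3 lower (Rela, Nfkb2 and Icam1) and 2 higher (Nfkbiz and Il1rl1), beside 38.2% of all genes tested without it. Il1rl1 entered that test through its Tks5+/- libraries. With library totals alone 6 of the 9 were called, all lower, beside 51.3% of all tested genes. Under that scaling 1362 genes were called higher and 3944 lower over the whole table.

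**Figure D3:**
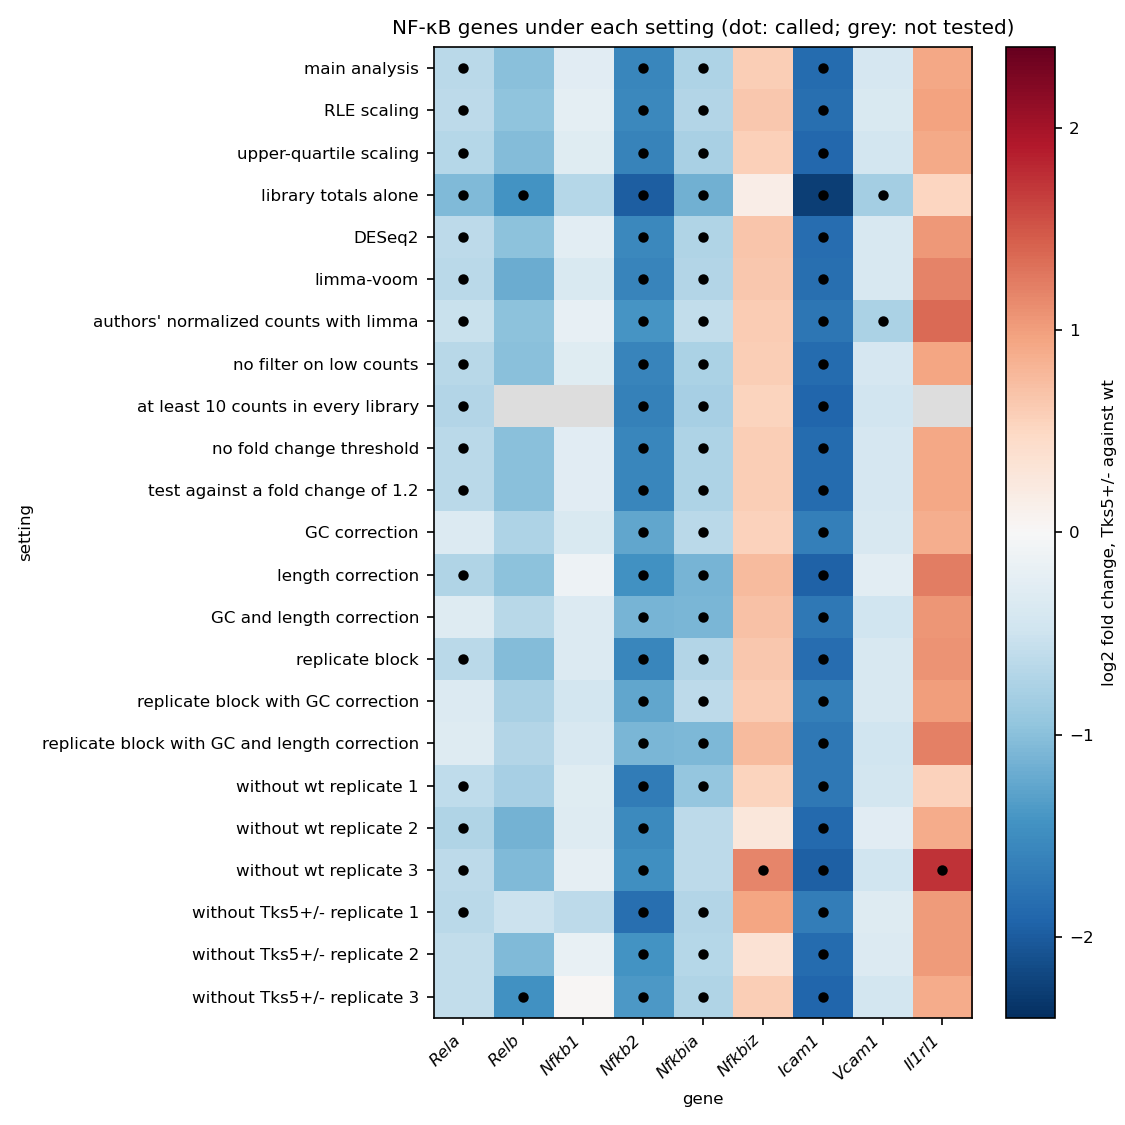
Log2 fold change of Tks5+/- against wt LFs (color) for the 9 NF-κB genes tested (horizontal axis) in the reported analysis and under 22 alternatives (vertical axis), with a dot where the gene was called and grey where it was not tested. Icam1 and Nfkb2 carry a dot in every row, whereas Nfkbiz and Il1rl1 carry one only without wt replicate 3.

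The other 108 genes of the pathway, which were listed by role, were next examined. Of these, 72 were tested and 32 (44.4%) were called, 25 lower and 7 higher, beside 44.9% of all tested genes. Their median log2 fold change was -0.42, beside -0.046 over all tested genes, and every role with more than 2 tested genes had a median between -0.47 and -0.40. Without wt replicate 3, 25 of 75 tested were called, 21 lower and 4 higher, beside 38.2% of all genes tested without it. With library totals alone 36 were called, 34 of them lower.

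Of 12 ligands, which bind the receptors upstream of NF-κB, 2 were tested and neither was called. Tnf had 3, 1 and 13 counts in wt libraries, most of them in replicate 3, and 0 in all Tks5+/- libraries. The filter on low counts removed it from the reported test, and it was called lower under both alternatives that tested it, edgeR without the filter (adjusted p = 0.00528) and DESeq2 (adjusted p = 0.048). Tnf was singled out after its values were seen. Of other pathway genes that this filter removed, Il1r2 (2, 1 and 7 counts in wt, 13, 14 and 6 in Tks5+/- libraries) was called higher under 4 of the 6 alternatives that tested it. Nfkbie and Mmp9 (6 of 6 each), Lcn2 (3 of 6) and Cxcl10 (1 of 2) were called lower. Of 19 receptors and their antagonists, 13 were tested, 4 were lower and 1 was higher. The higher call was Il1rn (log2 fold change 0.89, edgeR adjusted p = 0.0137), made under 17 of 22 alternatives. Ltbr, the lymphotoxin beta receptor that feeds the noncanonical arm, had 305, 440 and 680 counts in wt and 186, 165 and 136 in Tks5+/- libraries. It was 2.55-fold lower (log2 fold change -1.35, SE 0.21, edgeR adjusted p = 2.63e-05). Cd40, another receptor of that arm, fell by 1.47 on the log2 scale (SE 0.40, edgeR adjusted p = 0.00495). It had 26, 24 and 29 counts in wt and 11, 8 and 7 in Tks5+/- libraries. Cd40 passed the filter on low counts through its wt libraries, so its values are a description. The Toll-like receptor genes Tlr3, a sensor of double-stranded RNA, and Tlr6, a sensor of bacterial lipopeptides, were lower as well. Tlr3 fell by 2.4 (SE 0.39, edgeR adjusted p = 6.78e-05) and Tlr6 by 2.38 (SE 0.59, edgeR adjusted p = 0.00223) on the log2 scale, the latter from 9, 9 and 19 counts to 2 in each Tks5+/- library. Tlr6 passed the filter on low counts through its wt libraries alone, so its values are a description.

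Adaptors and ubiquitin enzymes, which carry the signal from the receptors to the kinases, included 18 tested genes, of which 6 were lower and 1 was higher. Myd88 was the gene called higher (log2 fold change 0.61, edgeR adjusted p = 0.0246), and its call was made under 15 of 22 alternatives. Its counts were 61, 73 and 95 in wt and 104, 99 and 114 in Tks5+/- libraries. Acaa1a, on the opposite strand, overlaps the end of Myd88 and had 101, 112 and 183 against 64, 57 and 60 counts. As strand use is not given, the split of reads between Myd88 and Acaa1a is uncertain. Traf3, which keeps NIK low in resting cells, was 3.10-fold lower (77, 69 and 127 counts in wt against 20, 20 and 39, log2 fold change -1.63, SE 0.28, edgeR adjusted p = 6.55e-05). Birc2, which encodes the ubiquitin ligase cIAP1, fell by 0.93 on the log2 scale (SE 0.28, edgeR adjusted p = 0.00827). Rbck1, which encodes HOIL-1 of the linear ubiquitin ligase, fell by 1.0 (SE 0.27, edgeR adjusted p = 0.00419). Fadd, an adaptor of death receptors, fell by 1.40 (SE 0.45, edgeR adjusted p = 0.0153), and it too passed the filter through its wt libraries alone. The call of Fadd was made under 17 of 21 alternatives. Among others, it was lost with DESeq2 (adjusted p = 0.0956, the highest of its alternatives, against a lowest of 0.00213), without wt replicate 2 (edgeR adjusted p = 0.0781) and without Tks5+/- replicate 1 (edgeR adjusted p = 0.0888). That of Rbck1 was made under 19 of 22 alternatives and lost, among others, with the GC correction (edgeR adjusted p = 0.0549, range over its alternatives 1.96e-04 to 0.0601). The call of Birc2 was lost without Tks5+/- replicate 1 (edgeR adjusted p = 0.0506, range 4.06e-04 to 0.0506).

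Of 8 tested kinases and their partners 3 were lower and none was called higher. Map3k14 (NIK), the kinase that starts the noncanonical arm, had 13, 16 and 22 counts in wt and 5, 1 and 6 in Tks5+/- libraries (log2 fold change -1.91, SE 0.52, edgeR adjusted p = 0.00439). Tab1, a partner of the kinase TAK1, fell by 2.06 on the log2 scale (SE 0.57, edgeR adjusted p = 0.00521). Map3k14 and Tab1 passed the filter on low counts through their wt libraries alone, so their values are a description. Ikbkb, which encodes the IKKβ kinase that marks IκBα for degradation, fell by 0.82 (SE 0.24, edgeR adjusted p = 0.00879). The Ikbkb call was made under 18 of 22 alternatives. It was lost, among others, without wt replicate 3 (edgeR adjusted p = 0.0821) and with the length correction (edgeR adjusted p = 0.0674, range over its alternatives 3.79e-04 to 0.0821).

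**Figure D4:**
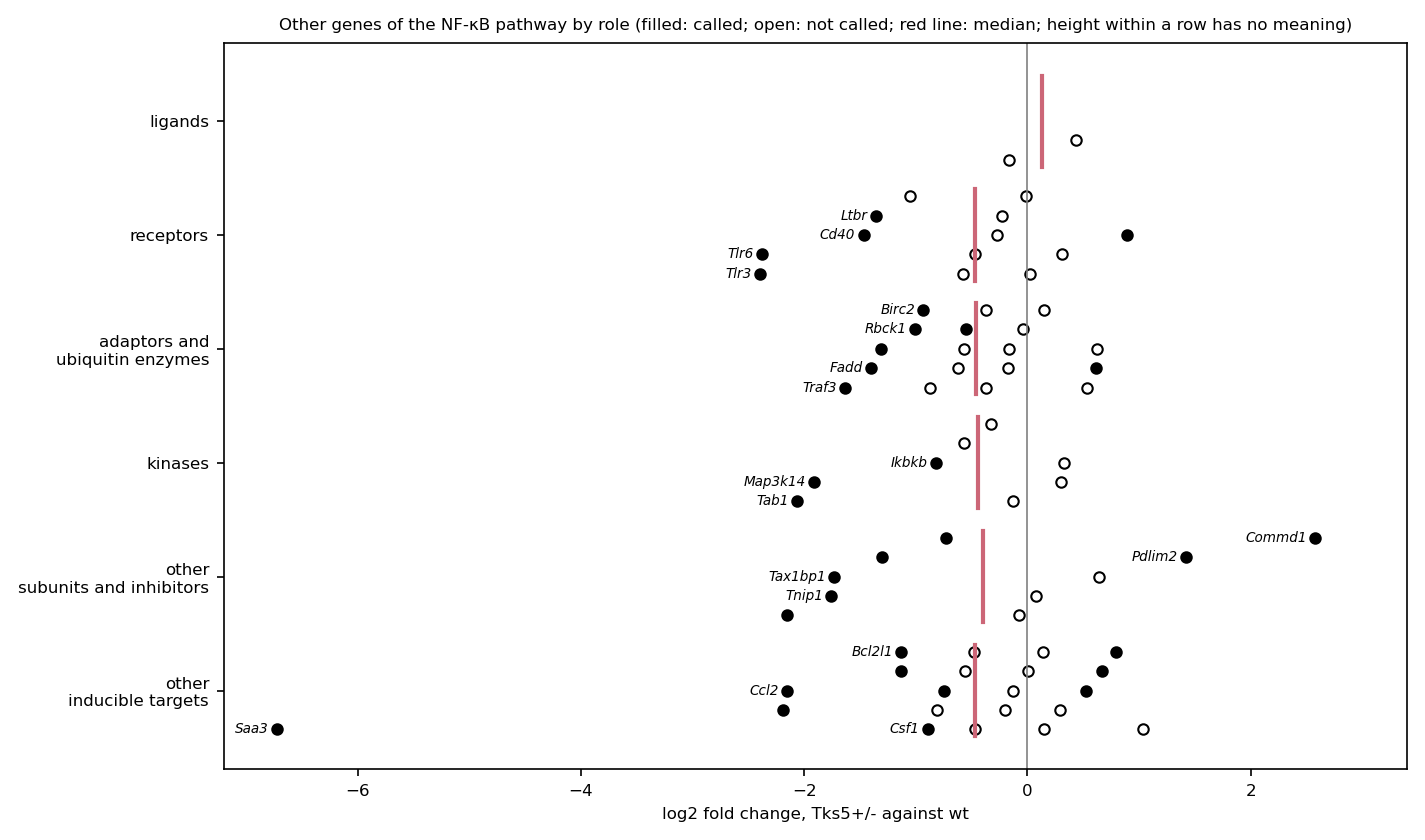
Log2 fold change of Tks5+/- against wt LFs (horizontal axis) for the 72 tested pathway genes beside the 10 described, by role (vertical axis), with filled points for called genes, open points for the others and a red line for the median of each role. Saa3 stands apart at -6.72, and Commd1 at 2.58 and Pdlim2 at 1.42 are the genes to the right of 0 that carry a label.

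The other subunits and inhibitors held calls in both directions, with 5 lower and 2 higher among 10 tested genes. Tnip1 and Tax1bp1 encode partners through which A20 reaches its targets. Tnip1 had 129, 183 and 200 counts in wt and 45, 39 and 54 in Tks5+/- libraries (log2 fold change -1.76, SE 0.23, edgeR adjusted p = 2.34e-06). Tax1bp1 fell by 1.73 on the log2 scale (SE 0.23, edgeR adjusted p = 2.58e-06). Conversely, Pdlim2 and Commd1, whose products promote the removal of nuclear RelA, were higher in Tks5+/- LFs. Pdlim2 rose 2.68-fold (1131, 1466 and 2076 counts in wt against 2529, 4298 and 4309, log2 fold change 1.42, SE 0.23, edgeR adjusted p = 2.85e-05). Commd1 rose 5.96-fold (55, 52 and 42 counts against 245, 391 and 189, log2 fold change 2.58, SE 0.34, edgeR adjusted p = 3.28e-05). A gene model on the same strand, Gm28048, overlaps the end of Commd1 and had 59, 57 and 87 counts in wt and 68, 105 and 88 in Tks5+/- libraries, so the split of reads between them is uncertain. The lower call of Nfkbib, which encodes IκBβ, is uncertain likewise, as its 34, 60 and 86 counts in wt and 27, 27 and 42 in Tks5+/- libraries were nearly those of Ccer2 on the opposite strand (35, 63 and 87 against 27, 24 and 41). Nfkbib was singled out for that overlap after its values were seen.

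Of 21 tested inducible targets beside Icam1, Vcam1 and Il1rl1, 7 were lower and 3 were higher. The higher calls were Il6 (log2 fold change 0.79, edgeR adjusted p = 0.0188), Sdc4 (0.67, edgeR adjusted p = 0.0204) and Sod2 (0.53, edgeR adjusted p = 0.0461). They were called under 14, 16 and 7 of 22 alternatives. Saa3, an acute phase protein of fibroblasts and macrophages, had 3794, 4695 and 2517 counts in wt and 34, 41 and 26 in Tks5+/- libraries. This 105-fold lower level (log2 fold change -6.72, SE 0.42, edgeR adjusted p = 7.81e-08) was the largest in either direction among the tested pathway genes. The part of macrophages in the Saa3 result was not tested. Ccl2, the chemokine that attracts monocytes, was 4.45-fold lower (457, 483 and 865 counts against 128, 143 and 84, log2 fold change -2.15, SE 0.24, edgeR adjusted p = 3.09e-07). Bcl2l1, which encodes the survival protein Bcl-xL, fell by 1.13 on the log2 scale (SE 0.22, edgeR adjusted p = 2.16e-04). Csf1, the growth factor of macrophages, fell by 0.89 (SE 0.21, edgeR adjusted p = 0.0015). These 4 targets were called under all 22 alternatives.

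**Figure D5:**
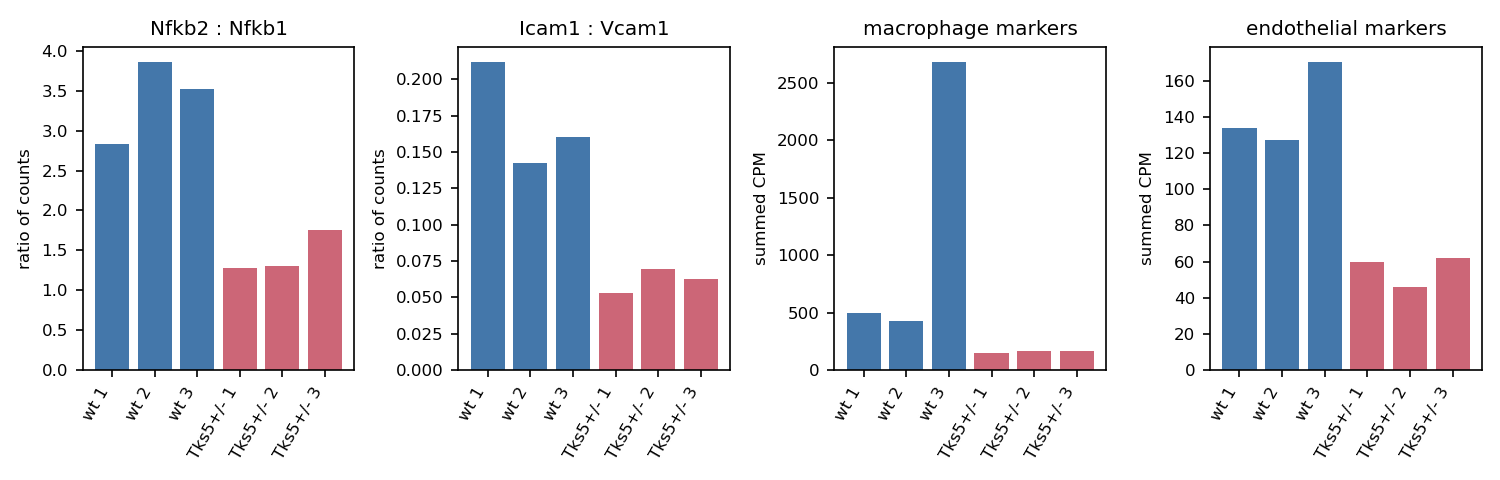
Ratios of counts within each library for Nfkb2 to Nfkb1 and Icam1 to Vcam1, and summed CPM of 20 macrophage and 12 endothelial markers (vertical axes from 0), with a bar for each wt (blue) and Tks5+/- (red) library. Both ratios are lower in all Tks5+/- libraries, and the macrophage markers reach 2679 CPM in wt replicate 3.

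Over the 6 libraries, the genes whose log2 CPM followed Icam1 most closely were Rflnb, Rock1, Zfp451, Csgalnact1 and Sos2, with Pearson's r from 0.995 to 0.996. All libraries enter each r and fall into the 2 genotypes, and 998 tested genes had an r over 0.9 with Icam1. Among the genes that followed Il1rl1 most closely were Rps29-ps, Gm4824, Usp12 and Pard6a (r from 0.977 to 0.992), and 123 tested genes had an r over 0.9 with it.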

How the data were processed

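Per the paper's methods and the labels, Quant-Seq reads, which come from the transcript end, were trimmed by the authors with Trim Galore, aligned to GRCm38 with HISAT2 and Bowtie2, counted with metaseqR2 on UTR regions of at least 300 bases with a flank of 50 bases, and deposited as raw counts per gene. The deposited normalized counts, made with EDASeq by the authors, were used as a score in 1 alternative. Strand use and the EDASeq options are not given in the sources used here.

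Genotypes were compared on these counts with the robust quasi-likelihood test of edgeR 4.0.16 (R 4.3.3), after filterByExpr and TMM scaling, with Benjamini-Hochberg adjustment over 10346 genes. CPM use TMM-scaled library sizes. The scripts were tested on simulated counts with known changes. There edgeR called 45.7% of 2-fold and 100% of 4-fold changes, and DESeq2 40% and 90%. Genes that did not pass the test may therefore still differ by about 2-fold. Symbols and coordinates came from GENCODE M21 for 55104 of 55364 genes.

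Alternatives were 3 other scalings, DESeq2 1.42.0, limma 3.58.1 (voom, or log2 of the normalized value plus 1), filters, thresholds, corrections for GC content and length (loess span 0.5), the replicate block, and each library left out. The study's combined test was not used. The genes and lists were chosen with earlier results of these data known. All 10 members are named, with up to 4 called genes of smallest adjusted p per role, the 5 genes most like each of Icam1 and Il1rl1 (1 of them is not reported here), and overlapping genes.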

Additional observations from a re-analysis of the deposited data

How the results depend on the processing

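The count of genes called ranged from 3705 to 5306 over 22 alternatives (3853 to 4595 with 1 library left out), that of the NF-κB genes from 3 to 6 (3 to 5 with 1 library left out), and that of the other pathway genes from 23 to 36 (25 to 34 with 1 library left out). The direction turned for Nfkb1 without Tks5+/- replicate 3 (log2 fold change 0.022, with -0.63 to 0.022 over the 6 libraries left out in turn) and for Sh3pxd2a with library totals alone (-0.13), neither of which was called there. Sh3pxd2a was called higher with the length correction (0.93), with GC and length corrected together (1.08) and with these and the block (1.07). Of 195 values of NF-κB genes under the alternatives, 180 kept their direction and side of the threshold, 8 were no longer called and 6 were newly called. With the replicate number as a block, 4668 genes, 4 NF-κB genes and 32 other pathway genes were called, and the block alone changed no call of an NF-κB gene. Same-numbered libraries correlated at -0.001, -0.064 and 0.082 in their deviations from the group means, so the numbers were not taken to pair the libraries. Intervals for genes under 30 counts per library, such as Nfkb1, Relb and Il1rl1, span more than 1 unit of log2, which limits what these depths can show.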
